A study of Homo sapiens with 8 samples.

Results

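The 33 genes described here are a list of p53 pathway genes, taken by symbol and not by a rule on measured values. Earlier results of these data were known when the list and its roles were chosen. Their symbols were matched to GENCODE 29 gene identifiers in each deposited table, and all 33 were found among 58780 genes. All 33 also passed the filter on low counts, which left 17446 genes to be tested. They were sorted by role into 5 feedback genes, 5 genes of cell cycle arrest, 9 genes of the mitochondrial route of apoptosis, 3 death receptors, 4 genes of DNA repair and nucleotide supply, and 7 genes of metabolism, redox control and other functions. RNA-seq was done on H1 cells, a human embryonic stem cell line, at 4 stages on the way to pharyngeal endoderm, with 2 libraries per stage: hESC, the stem cells themselves; hDE, definitive endoderm; hAFE, anterior foregut endoderm; and hPFE, pharyngeal foregut endoderm. All groups come from 1 line, and the labels name no genotype change, DNA-damaging agent or p53 activator in any of them. The growth factors and days of each stage were not analysed here. The comparisons follow each step of the series and its 2 ends.

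The transcription factor p53 is held at a low level in unstressed cells by MDM2, an E3 ubiquitin ligase that is itself made from a p53 target gene, so that the factor limits its own level. DNA damage, faulty ribosome assembly or oncogene signals release p53, which then binds response elements near its target genes. A response element is a pair of half-sites that lie side by side or with a short spacer. The targets hold the cell cycle, repair DNA, adjust metabolism or start apoptosis. Human embryonic stem cells are known for a short G1 phase, low CDKN1A and a readiness for apoptosis.

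A match to a full p53 response element was found for 5 members in the RefSeq promoter window, which runs from 250 bases before to 50 bases after a start site (GRCh38.p14). They are shown as the places where the list meets the factor's consensus by sequence alone, apart from the RNA measurements. The search used the p53 consensus half-site of 10 bases, with 2 half-sites on either strand. It allowed a spacer of 0 to 13 bases and at most 2 mismatches over 20 positions. The C and the G fixed in the consensus half-site had to match in both half-sites. Capitals mark the half-sites, and each sequence is given on the strand of its gene, 5′ to 3′.
DDB2, chr11:47214975-47215003, plus strand, 6 to 26 bases after the start, 0 mismatches, spacer of 1 base: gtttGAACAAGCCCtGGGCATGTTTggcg
MDM2, chr12:68808918-68808947, plus strand, 2 mismatches: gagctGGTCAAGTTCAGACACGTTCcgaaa
FAS, chr10:88991304-88991333, plus strand, 2 mismatches: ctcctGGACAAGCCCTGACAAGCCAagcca
AEN, chr15:88621301-88621330, plus strand, 2 mismatches: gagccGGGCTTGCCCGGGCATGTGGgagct
FDXR, chr17:74872996-74873025, minus strand, 2 mismatches, spacer of 10 bases: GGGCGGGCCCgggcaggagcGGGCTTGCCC

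The MDM2 match lies in an intron of the longest gene model, upstream of internal start sites, while the other 4 overlap an exon of an annotated transcript. A promoter window was given for 27 of the 33 members, and 5 of these 27 (18.519%) held a full match, against 989 of 27305 genes (3.622%). The members without a window were CMBL, PHLDA3, RRM2B, TNFRSF10A, TNFRSF10B and TP53INP1. A match is a description of letters, and the RNA data hold no measure of binding.

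Library totals ran from 12687128 to 17802890 estimated counts. Levels are given as CPM, counts relative to library size after TMM scaling between libraries, in the order replicate 1 and replicate 2; changes are log2 fold changes ± SE from edgeR's quasi-likelihood test, called at a Benjamini-Hochberg adjusted p below 0.05. A call is named as lost where it no longer passed without a library, or in some of 12 other analyses (other scalings, filters, tools, a replicate block, and TPM in place of counts). Nothing in the labels ties replicates to separate cultures, and the p-values measure only how far these libraries differ, a spread that may be technical. The titles call the libraries of the first 2 stages re-analysed and those of the last 2 not, so library origin and stage cannot be told apart in hAFE against hDE and in hPFE against hESC. Stage markers followed the labels. POU5F1 was at 858 and 942 CPM in hESC, CER1 at 7219 and 7995 in hDE, and PAX1 at 26.5 and 17.3 in hPFE against 0 and 0.658 in hAFE.

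The 2 hPFE libraries stood apart from each other in several marker genes. The summed level of 7 mesenchyme markers was 1348 CPM in replicate 1 and 186 in replicate 2, with COL3A1 at 1232 and 29.7. Without COL3A1 the other 6 summed to 117 and 156 CPM, as LUM went the other way at 11.4 and 87.4 while 6 of the 7 were lower in replicate 2. The summed level of 10 amnion and trophoblast markers was 96.8 and 214, with the keratin gene KRT7 at 12.4 and 162 and CGB5 at 0 in both. Without KRT7 the other 9 summed to 84.4 and 51.9 CPM, with ISL1 at 71.1 and 34.3. The sum of the 10 was 26.5 and 125 in the 2 hAFE libraries, with the hormone subunit gene CGA at 4.56 and 69. Mitochondrial ribosomal RNA took 18.4% of counts in hPFE replicate 2, the highest of the 8 libraries, which otherwise held 10.6% to 14.3%. The part of these differences in the results below was not tested. In bulk RNA, fewer cells of a type and less RNA per cell cannot be told apart.

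**Figure D1:**
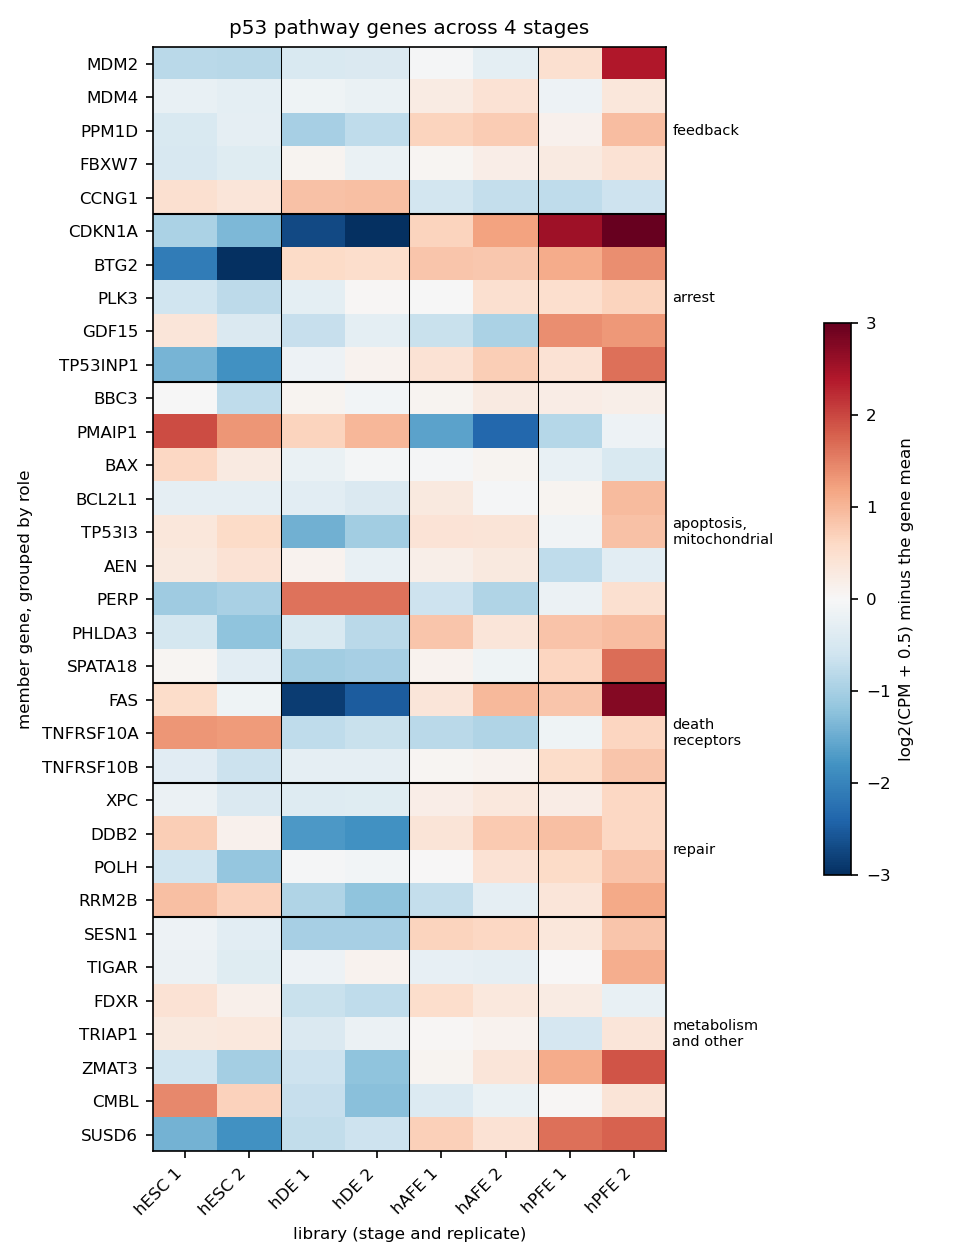
Each row is a member gene, each column a library, and the colour is log2(CPM + 0.5) minus the gene's mean over the 8 libraries, with colours saturating at 3 in either direction; black lines separate roles and stages. Most rows are red in the hPFE columns and blue in the hESC or hDE columns. Rows that go the other way include PMAIP1, CCNG1, BAX and AEN, blue in both hPFE columns and red in both hESC columns.

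By mean CPM, 20 of 33 members (60.61%) were highest in hPFE, against 21.91% of all genes tested, and 14 (42.42%) were lowest in hDE, against 26.29%. With hPFE replicate 1 alone standing for that stage, 16 members (48.48%) were highest in hPFE, against 22.46% of all genes, and 13 were lowest in hDE. Another 13 members were lowest in hESC. The spans ran from 1.49-fold for BBC3 to 84.4-fold for CDKN1A and 74.5-fold for FAS, each from its lowest to its highest stage mean. Members that peaked in hESC were PMAIP1, BAX, AEN, TNFRSF10A, RRM2B, TRIAP1 and CMBL. The members that peaked in hDE were PERP and CCNG1.

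In hDE against hESC, 6 members rose and 10 fell, or 18.18% and 30.3% of the list. Over all genes tested 20.3% rose and 21.6% fell, 41.9% in either direction, so the share that rose was near the background. The median log2 fold change was -0.11 for the members and -0.0071 for all genes. BTG2, TP53INP1, PERP, POLH, SUSD6 and CCNG1 rose. CDKN1A, TP53I3, BAX, FAS, TNFRSF10A, DDB2, RRM2B, SESN1, FDXR and CMBL fell. Without hDE replicate 1 the counts were 4 and 5, and without hDE replicate 2 they were 2 and 6. On the deposited TPM values with a pseudocount of 1, where the median of all genes stood at -0.27, 2 members rose and 8 fell.

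In hAFE against hDE, 11 members rose and 3 fell, or 33.33% and 9.09%, where 15% of all genes rose and 15.2% fell (30.2% together). Their median log2 fold change was 0.50, against 0.0123 for all genes. PPM1D, CDKN1A, TP53I3, PHLDA3, FAS, XPC, DDB2, SESN1, FDXR, ZMAT3 and SUSD6 rose, while CCNG1, PMAIP1 and PERP fell. Without hDE replicate 1, 6 rose and 3 fell. On that TPM scale, where the median of all genes stood at 0.50, 20 members rose and 2 fell. The hDE libraries are of re-analysed origin and the hAFE libraries are not, as stated above.

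In hPFE against hAFE, 8 members rose and 1 fell, or 24.24% and 3.03%, where 4.77% of all genes rose and 2.71% fell (7.49% together). The median log2 fold change was 0.45, against -0.0339 for all genes. CDKN1A, GDF15, PMAIP1, PERP, TNFRSF10A, RRM2B, ZMAT3 and SUSD6 rose, and AEN fell. None of these 9 calls held under all 20 alternative analyses. Without hPFE replicate 2, 4 members rose (CDKN1A, GDF15, SUSD6 and MDM2) and 1 fell (AEN); without hPFE replicate 1, 15 rose and 0 fell. With only the 4 libraries of this step in the edgeR fit, 0 members passed, 13 had an unadjusted p below 0.05, and 56 genes passed in all; DESeq2 on all 8 libraries called 11 members, and limma voom with a weight per stage called 2. Without any 1 of the hESC, hDE or hAFE libraries, between 3 and 4 members rose and 0 fell. On log2(TPM + 1), with the median of all genes at 0.14, 3 rose and 0 fell.

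Over the whole course, in hPFE against hESC, 19 members rose and 5 fell, or 57.58% and 15.15%. Among all genes tested 21.6% rose and 23.3% fell (45% together). The median log2 fold change was 0.86 for the members and 0.0155 for all genes. Without hPFE replicate 2, 15 members rose and 6 fell, and without hESC replicate 2, 10 rose and 3 fell. On log2(TPM + 1), with the median of all genes at 0.36, 22 rose and 1, PMAIP1, fell; the calls for CCNG1, BAX, AEN and TNFRSF10A as lower were lost there. Counts by role are given below as a description, as the difference between roles was not tested. The 2 stages come from libraries of different origin.

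**Figure D2:**
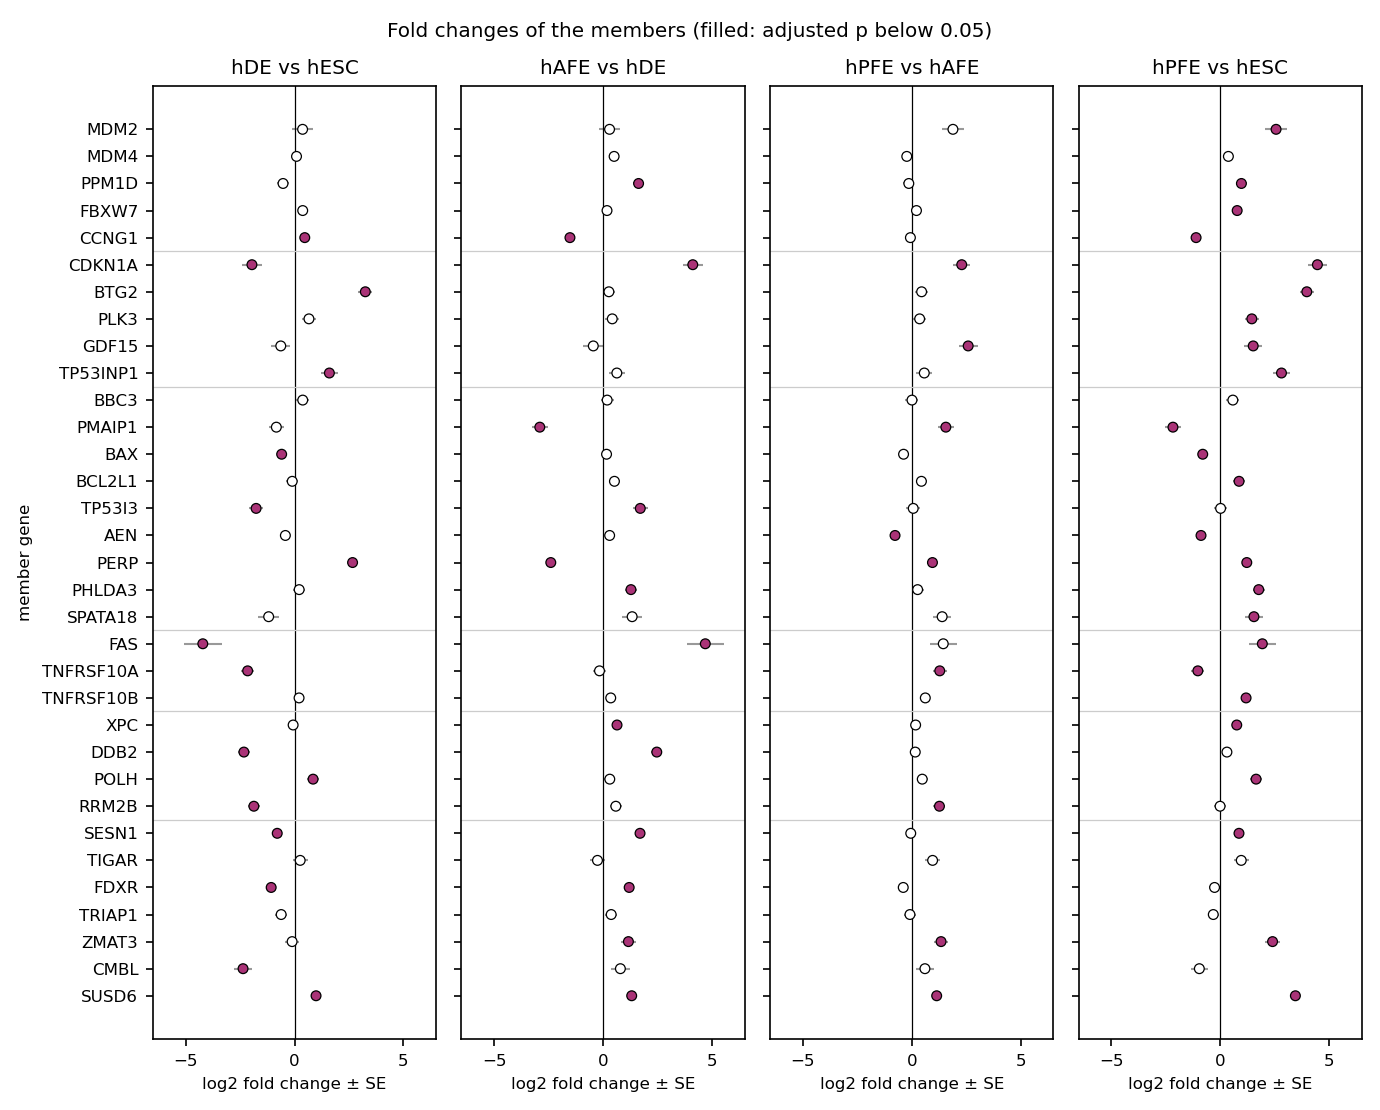
Points are log2 fold changes of the 33 members in the 4 comparisons and bars are ± SE from edgeR; filled points have an adjusted p below 0.05, and grey lines separate roles. In hPFE against hESC the 5 arrest genes (CDKN1A, BTG2, PLK3, GDF15, TP53INP1) all lie to the right of 0, while PMAIP1, BAX, AEN, TNFRSF10A and CCNG1 are filled points to the left.

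Among the feedback genes, MDM2 rose over the course and CCNG1 fell. Of these 5 genes, 1 rose and 0 fell in hDE against hESC (20% and 0%, against 20.3% and 21.6% of all genes). In hAFE against hDE 1 rose and 1 fell (20% and 20%, against 15% and 15.2%). In hPFE against hAFE 0 rose and 0 fell, against 4.77% and 2.71%. Over the course 3 rose and 1 fell (60% and 20%, against 21.6% and 23.3%), with a median log2 fold change of 0.77. With 0 calls at the last step, 1 had an unadjusted p below 0.05 in edgeR, DESeq2 called 1 and limma voom 0. MDM2 (chr12:68808176-68850686), the ligase that marks p53 for degradation, stood at 135 and 133 CPM in hESC, 172 and 174 in hDE, 232 and 193 in hAFE and 329 and 1247 in hPFE. Both hPFE libraries were above the other 6, and they differed 3.79-fold from each other, more than the step from hAFE to hPFE replicate 1. MDM2 passed in hPFE against hESC (log2 fold change 2.56 ± 0.52, adjusted p = 0.00618), where the value was smaller without hPFE replicate 2 (log2 fold change 1.3, adjusted p = 0.00141) and larger without hPFE replicate 1 (log2 fold change 3.22, adjusted p = 0.000101), and the call was lost without hESC replicate 2 (adjusted p = 0.0512). It did not pass in hPFE against hAFE (log2 fold change 1.89 ± 0.51, adjusted p = 0.0634), although it did without hPFE replicate 2 (log2 fold change 0.63, adjusted p = 0.0489). On the deposited TPM scale, which allows for gene length, MDM2 was the fourth member in hESC with a mean of 16.9 TPM. It ranked first in hPFE, at 54.2 and 283 TPM.

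CCNG1 (chr5:163437569-163446151), which codes for cyclin G1, a protein that recruits a phosphatase to MDM2, was the highest member on the TPM scale in hESC, hDE and hAFE. Its levels were 752 and 683 CPM in hESC, 989.5 and 999 in hDE, 366 and 326 in hAFE and 317 and 347 in hPFE, so that the 4 libraries of the first stages lay above the 4 of the last. It fell at hAFE against hDE (log2 fold change -1.52 ± 0.14, adjusted p = 0.000279) and over the whole course (log2 fold change -1.11 ± 0.14, adjusted p = 0.000822), and each of these calls was lost in 2 of 12 other analyses, both on deposited TPM. Its rise at hDE (log2 fold change 0.47 ± 0.13, adjusted p = 0.0255) was lost without either hESC library or either hDE library (adjusted p between 0.0806 and 0.148) and in 2 of 12 other analyses, and on log2(TPM + 1) the value was -0.007823.

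PPM1D, the phosphatase WIP1 that switches off ATM signalling and p53, was at 20.7 and 23.7 CPM in hESC, 14.1 and 16.7 in hDE, 46.2 and 49.1 in hAFE and 31.6 and 55.3 in hPFE. The 4 foregut libraries were above the 4 earlier ones, and hAFE against hDE passed (log2 fold change 1.63 ± 0.26, adjusted p = 0.00329). The call in hPFE against hESC (log2 fold change 0.97 ± 0.26, adjusted p = 0.0177) was lost without either hESC library or hPFE replicate 2 (adjusted p between 0.055 and 0.106). MDM4, the MDM2 partner that blocks p53's activation domain, passed in none of the 4 comparisons, with stage means between 61.2 and 92.6 CPM. FBXW7, the substrate receptor of a ubiquitin ligase for cyclin E and MYC, passed in hPFE against hESC (log2 fold change 0.77 ± 0.15, adjusted p = 0.00492) and in none of the other 3 comparisons, with stage means from 33.01 to 56.4 CPM.

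All 5 arrest genes rose from hESC to hPFE. Of these 5 genes, 2 rose and 1 fell in hDE against hESC (40% and 20%, against 20.3% and 21.6% of all genes). In hAFE against hDE 1 rose and 0 fell (20% and 0%, against 15% and 15.2%). In hPFE against hAFE 2 rose and 0 fell (40% and 0%, against 4.77% and 2.71%). Over the course 5 rose and 0 fell (100% and 0%, against 21.6% and 23.3%), with a median log2 fold change of 2.81. CDKN1A (chr6:36676460-36687339) codes for p21, the CDK inhibitor through which p53 stops cells in G1. Its levels were 10.8 and 8.03 CPM in hESC, 2.85 and 2.03 in hDE, 34.4 and 49.5 in hAFE and 127 and 285 in hPFE. The hDE libraries were the lowest of the 8, and after hDE each stage lay wholly above the one before. The fall at hDE (log2 fold change -1.95 ± 0.47, adjusted p = 0.0126) was lost without hESC replicate 1 or either hDE library (adjusted p between 0.0512 and 0.086) and in 2 of 12 other analyses. The rise from hDE to hAFE was 17.3-fold (log2 fold change 4.11 ± 0.46, adjusted p = 0.000722), and that from hAFE to hPFE was 4.9-fold (log2 fold change 2.29 ± 0.38, adjusted p = 0.0154). The second of these stayed past the threshold without each library in turn, though it was smaller without hPFE replicate 2 (log2 fold change 1.6, adjusted p = 0.0176) and did not pass in the fit of only the 4 libraries. From hESC to hPFE the rise was 21.9-fold (log2 fold change 4.45 ± 0.42, adjusted p = 0.000302), and without hPFE replicate 2 the log2 fold change was 3.76 (adjusted p = 0.000362), next to 3.81 (adjusted p = 0.000833) for BTG2.

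BTG2, an antiproliferative adaptor of mRNA deadenylation, rose earlier. It stood at 5.47 and 2.37 CPM in hESC, 37.8 and 36.6 in hDE, 44.9 and 44.5 in hAFE and 55 and 67.5 in hPFE, and the only gap between stages that passed among neighbours was the first (log2 fold change 3.25 ± 0.33, adjusted p = 0.000332). CDKN1A and BTG2 thus had calls in opposite directions at hDE. Without hESC replicate 1 the value of BTG2 at hDE was larger (log2 fold change 3.96, adjusted p = 0.000984), as was that over the course (log2 fold change 4.68, adjusted p = 0.000513, against 3.97 with all libraries). TP53INP1, a cofactor of p53 in stress responses, also rose at hDE (log2 fold change 1.6 ± 0.38, adjusted p = 0.012), a call lost without hESC replicate 2 or hDE replicate 2 (adjusted p between 0.0696 and 0.0878) and in 2 of 12 other analyses. Its 8 values were 18.7 and 13.8 CPM in hESC, 44.9 and 53.7 in hDE, 68.4 and 84.2 in hAFE and 68.1 and 159.5 in hPFE, and the whole course passed (log2 fold change 2.81 ± 0.39, adjusted p = 0.00131). There hPFE replicate 2 was 2.34 times replicate 1, and without it the log2 fold change was 2.06 (adjusted p = 0.00122).

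PLK3, a stress-responsive kinase, was at 2.58 and 2.2 CPM in hESC, 3.29 and 4.27 in hDE, 4.16 and 6.0 in hAFE and 6.13 and 6.93 in hPFE, values in which none of the 3 steps passed and the whole course did (log2 fold change 1.44 ± 0.32, adjusted p = 0.00847), except without hESC replicate 2 (adjusted p = 0.0679). GDF15, a secreted TGF-beta family cytokine induced by stress, was at 2.94 and 1.47 CPM in hESC, 1.16 and 1.67 in hDE, 1.19 and 0.877 in hAFE and 6.5 and 6.06 in hPFE. It rose at the last step (log2 fold change 2.59 ± 0.44, adjusted p = 0.0173), a call lost without hAFE replicate 2 (adjusted p = 0.0506) and in 2 of 12 other analyses. The call over the whole course (log2 fold change 1.51 ± 0.41, adjusted p = 0.0202) was lost without hESC replicate 2 (adjusted p = 0.126). For GDF15 the 2 hPFE libraries were alike, with a ratio of 0.933.

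**Figure D3:**
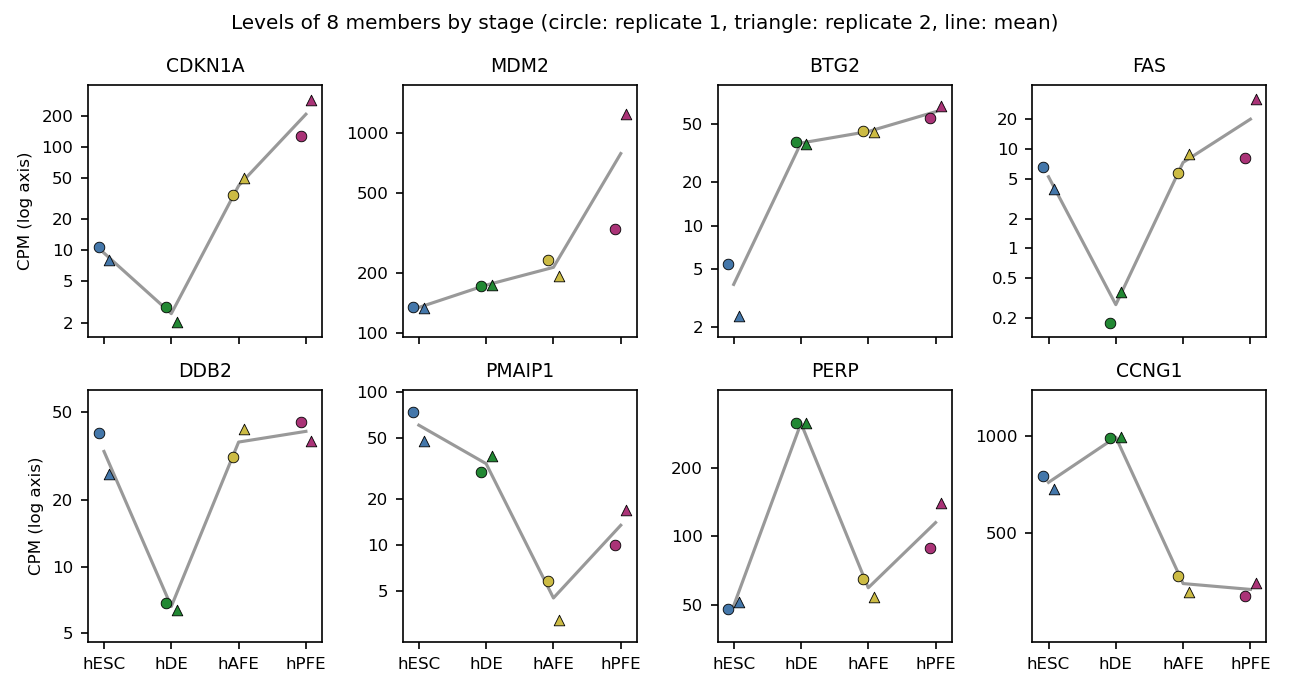
Levels of 8 members in CPM on log axes by stage, with circles for replicate 1, triangles for replicate 2 and a line through the stage means; each panel has its own range. CDKN1A, FAS and DDB2 have their lowest points in hDE, PMAIP1 falls to 5.75 and 3.22 CPM in hAFE, PERP peaks in hDE, and the hPFE points of MDM2 and FAS lie far apart.

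The mitochondrial apoptosis genes moved in both directions, as did all genes tested. Of these 9 genes, 1 rose and 2 fell in hDE against hESC (11.11% and 22.22%, against 20.3% and 21.6% of all genes). In hAFE against hDE 2 rose and 2 fell (22.22% and 22.22%, against 15% and 15.2%). In hPFE against hAFE 2 rose and 1 fell (22.22% and 11.11%, against 4.77% and 2.71%). Over the course 4 rose and 3 fell (44.44% and 33.33%, against 21.6% and 23.3%), with a median log2 fold change of 0.57. BBC3 (chr19:47220822-47232766), which codes for the BH3-only killer protein PUMA, was at 7.33 and 4.18 CPM in hESC, 7.92 and 7.03 in hDE, 7.93 and 9.07 in hAFE and 8.68 and 8.44 in hPFE and passed in none of the 4 comparisons; the value in hPFE against hESC was 0.57 ± 0.30 (adjusted p = 0.154). PMAIP1 (chr18:59899948-59904306), which codes for the BH3-only protein NOXA, went the other way from CDKN1A at hAFE. Its levels were 73.2 and 47.3 CPM in hESC, 29.8 and 37.7 in hDE, 5.75 and 3.22 in hAFE and 10.02 and 16.7 in hPFE, so all 4 foregut libraries were below all 4 earlier ones. It fell at hAFE against hDE (log2 fold change -2.91 ± 0.38, adjusted p = 0.00134) and over the whole course (log2 fold change -2.17 ± 0.35, adjusted p = 0.00251). A small return at hPFE (log2 fold change 1.57 ± 0.38, adjusted p = 0.0476) was lost without either hESC library, either hDE library, hAFE replicate 2 or hPFE replicate 2 (adjusted p between 0.0755 and 0.125) and in 7 of 12 other analyses.

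BAX (chr19:48954815-48961798), which codes for the pore-forming protein of the outer mitochondrial membrane, was highest in the stem cells, at 47.5 and 37.5 CPM in hESC, 26.8 and 29.6 in hDE, 30.3 and 32.6 in hAFE and 26.3 and 22.2 in hPFE. It fell at hDE (log2 fold change -0.59 ± 0.17, adjusted p = 0.0262), a call lost without hESC replicate 1 or either hDE library (adjusted p between 0.0757 and 0.181), and over the whole course (log2 fold change -0.81 ± 0.17, adjusted p = 0.00727), a call lost without hESC replicate 1 (adjusted p = 0.0605) and in 2 of 12 other analyses. BCL2L1, whose main product BCL-XL restrains BAX, had stage means from 41.8 to 81.6 CPM. Its rise over the course (log2 fold change 0.86 ± 0.27, adjusted p = 0.0324) was lost without either hESC library, either hDE library or hPFE replicate 2 (adjusted p between 0.0559 and 0.138) and in 1 of 12 other analyses. AEN, a nuclease that digests DNA in apoptosis, fell over the course (log2 fold change -0.89 ± 0.19, adjusted p = 0.00706), a call lost without hESC replicate 2 (adjusted p = 0.058) and in 2 of 12 other analyses. AEN carries 1 of the promoter matches printed above, as do MDM2 and FAS, whose direction over the course was the opposite. The last step of AEN (log2 fold change -0.77 ± 0.19, adjusted p = 0.049) was lost without either hESC library, either hDE library, either hAFE library or hPFE replicate 1 (adjusted p between 0.0746 and 0.11) and in 9 of 12 other analyses.

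PERP, a membrane protein of cell junctions that also has a part in apoptosis, was highest in hDE. It was at 47.8 and 51.1 CPM in hESC, 314 and 313 in hDE, 64.8 and 53.8 in hAFE and 89.1 and 140.3 in hPFE, and both hDE libraries were more than 2 times any of the other 6. It rose at hDE (log2 fold change 2.66 ± 0.23, adjusted p = 0.000161), fell at hAFE (log2 fold change -2.4 ± 0.22, adjusted p = 0.000317) and was higher in hPFE than in hESC (log2 fold change 1.21 ± 0.22, adjusted p = 0.0036). Its rise at the last step (log2 fold change 0.95 ± 0.21, adjusted p = 0.0398) was lost without either hESC library, either hDE library, either hAFE library or hPFE replicate 2 (adjusted p between 0.0554 and 0.11) and in 6 of 12 other analyses. TP53I3, a quinone oxidoreductase linked to oxidative stress, was lowest in hDE, at 18.6 and 22.1 CPM in hESC, 5.07 and 6.88 in hDE, 19.7 and 19.5 in hAFE and 13.7 and 27.4 in hPFE. The fall (log2 fold change -1.76 ± 0.34, adjusted p = 0.00506) and the return (log2 fold change 1.7 ± 0.34, adjusted p = 0.00789) both passed, the second except without hDE replicate 1 (adjusted p = 0.070), and hPFE against hESC did not pass (log2 fold change 0.012 ± 0.32, adjusted p = 0.981). Within hPFE the second library was 2.00 times the first.

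PHLDA3, a PH-domain protein that holds back AKT, rose at hAFE, with values of 12.3 and 7.41 CPM in hESC, 12.9 and 9.92 in hDE, 32.1 and 23.1 in hAFE and 32.7 and 34 in hPFE. It passed at hAFE against hDE (log2 fold change 1.28 ± 0.28, adjusted p = 0.0124), except without hDE replicate 2 (adjusted p = 0.094), and over the course (log2 fold change 1.76 ± 0.28, adjusted p = 0.00239). SPATA18, which codes for a mitochondrial quality control protein, was at 2.64 and 1.92 CPM in hESC, 0.979 and 1.01 in hDE, 2.78 and 2.27 in hAFE and 4.25 and 9.09 in hPFE. Its higher level in hPFE than in hESC (log2 fold change 1.54 ± 0.43, adjusted p = 0.021) was lost without either hESC library or hPFE replicate 2 (adjusted p between 0.0671 and 0.131) and in 2 of 12 other analyses.

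Among the 3 death receptors, FAS was lowest in hDE, TNFRSF10A was low in both hDE and hAFE, and TNFRSF10B was highest in hPFE. For TNFRSF10A hAFE against hDE did not pass (log2 fold change -0.17 ± 0.32, adjusted p = 0.728). Of the 3 receptors, 0 rose and 2 fell in hDE against hESC (0% and 66.67%, against 20.3% and 21.6% of all genes). In hAFE against hDE 1 rose and 0 fell (33.33% and 0%, against 15% and 15.2%). In hPFE against hAFE 1 rose and 0 fell (33.33% and 0%, against 4.77% and 2.71%). Over the course 2 rose and 1 fell (66.67% and 33.33%, against 21.6% and 23.3%), with a median log2 fold change of 1.18. FAS (chr10:88990582-89015785), the receptor of FAS ligand, was lowest in hDE, at 6.61 and 3.96 CPM in hESC, 0.178 and 0.362 in hDE, 5.75 and 8.99 in hAFE and 8.07 and 32.2 in hPFE. The 2 hDE libraries held 2 and 5 counts of it. The fall (log2 fold change -4.21 ± 0.86, adjusted p = 0.00681) and the return (log2 fold change 4.69 ± 0.86, adjusted p = 0.0057) passed, and both were lost without hDE replicate 1 (adjusted p = 0.0573 and 0.0547). Without hDE replicate 2 they were -4.85 (adjusted p = 0.0435) and 5.32 (adjusted p = 0.0449). The fall was also lost in 2 of 12 other analyses. In hPFE the 2 libraries differed 3.99-fold, the widest gap of any member in that stage. FAS passed in hPFE against hESC (log2 fold change 1.93 ± 0.62, adjusted p = 0.0361), a call lost without either hESC library, either hDE library or hPFE replicate 2 (adjusted p between 0.0578 and 0.305) and in 3 of 12 other analyses; without hPFE replicate 1 the log2 fold change was 2.61 (adjusted p = 0.00322). FAS overlaps ACTA2 on the opposite strand, and the libraries kept strand, per the labels' protocols.

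TNFRSF10A, the TRAIL receptor also called DR4, was highest in the stem cells at 15.4 and 15 CPM in hESC, 3.29 and 3.55 in hDE, 3.17 and 2.92 in hAFE and 5.4 and 9.52 in hPFE. It fell at hDE (log2 fold change -2.15 ± 0.31, adjusted p = 0.0016) and ended lower in hPFE than in hESC (log2 fold change -1.03 ± 0.30, adjusted p = 0.0245), though the second call was lost without either hESC library or hPFE replicate 1 (adjusted p between 0.0578 and 0.106) and in 3 of 12 other analyses. The rise at the last step (log2 fold change 1.29 ± 0.31, adjusted p = 0.0491) was lost without either hESC library, either hDE library, either hAFE library or hPFE replicate 2 (adjusted p between 0.0932 and 0.119) and in 7 of 12 other analyses. TNFRSF10B, the other death-domain TRAIL receptor or DR5, had its lowest mean CPM in hESC, though hDE against hESC did not pass (log2 fold change 0.21 ± 0.15, adjusted p = 0.3035). It stood at 112 and 91.4 CPM in hESC, 118 and 117 in hDE, 147 and 152 in hAFE and 208 and 252 in hPFE, with each stage wholly above the one before, and passed over the course (log2 fold change 1.18 ± 0.15, adjusted p = 0.00105). The 2 TRAIL receptors thus had opposite calls over the same comparison.

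Among the repair genes, the 2 damage sensors of nucleotide excision repair had different calls. Of the 4 repair genes, 1 rose and 2 fell in hDE against hESC (25% and 50%, against 20.3% and 21.6% of all genes). In hAFE against hDE 2 rose and 0 fell (50% and 0%, against 15% and 15.2%). In hPFE against hAFE 1 rose and 0 fell (25% and 0%, against 4.77% and 2.71%). Over the course 2 rose and 0 fell (50% and 0%, against 21.6% and 23.3%), with a median log2 fold change of 0.53. DDB2 (chr11:47214465-47239240), which recognises ultraviolet lesions in chromatin and carries the promoter match without a mismatch, was at 39.9 and 26.3 CPM in hESC, 6.85 and 6.37 in hDE, 31.3 and 41.7 in hAFE and 44.8 and 36.7 in hPFE. Both hDE libraries lay below 7 CPM while the other 6 lay above 26. The fall (log2 fold change -2.32 ± 0.26, adjusted p = 0.000506) and the return (log2 fold change 2.46 ± 0.26, adjusted p = 0.000555) were close in size, and hPFE against hESC did not pass (log2 fold change 0.30 ± 0.24, adjusted p = 0.327). XPC (chr3:14145147-14178783), which opens repair at distorted DNA, was at 26.3 and 22 CPM in hESC, 23 and 23.2 in hDE, 34.6 and 37.4 in hAFE and 35.3 and 46.2 in hPFE, and hDE against hESC did not pass (log2 fold change -0.063 ± 0.18, adjusted p = 0.797). Its rise at hAFE (log2 fold change 0.64 ± 0.18, adjusted p = 0.0296) was lost without either hDE library or either hAFE library (adjusted p between 0.054 and 0.138), and its rise over the course (log2 fold change 0.75 ± 0.18, adjusted p = 0.0107) was lost without hESC replicate 2 (adjusted p = 0.0821).

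POLH, the polymerase eta that copies past ultraviolet lesions, was at 8.11 and 5.37 CPM in hESC, 12.4 and 11.9 in hDE, 12.8 and 17.3 in hAFE and 18.9 and 23.2 in hPFE. It rose over the course (log2 fold change 1.64 ± 0.27, adjusted p = 0.00246). The rise at hDE (log2 fold change 0.85 ± 0.27, adjusted p = 0.0347) was lost without hESC replicate 2 or either hDE library (adjusted p between 0.118 and 0.193) and in 5 of 12 other analyses. RRM2B, the p53-inducible small subunit of ribonucleotide reductase, supplies nucleotides outside S phase. It was at 122 and 104 CPM in hESC, 34.4 and 27.7 in hDE, 39.4 and 53.5 in hAFE and 82.6 and 142 in hPFE, which put hDE lowest. The fall passed (log2 fold change -1.87 ± 0.28, adjusted p = 0.00181). Its rise at the last step (log2 fold change 1.27 ± 0.27, adjusted p = 0.0348) was lost without either hESC library, either hDE library, hAFE replicate 1 or hPFE replicate 2 (adjusted p between 0.0704 and 0.101) and in 4 of 12 other analyses. The hPFE and hESC means were 112 and 113 CPM.

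Of the metabolic and other members, SUSD6 and ZMAT3 ended far above the stem cells. Of these 7 genes, 1 rose and 3 fell in hDE against hESC (14.29% and 42.86%, against 20.3% and 21.6% of all genes). In hAFE against hDE 4 rose and 0 fell (57.14% and 0%, against 15% and 15.2%). In hPFE against hAFE 2 rose and 0 fell (28.57% and 0%, against 4.77% and 2.71%). Over the course 3 rose and 0 fell (42.86% and 0%, against 21.6% and 23.3%), with a median log2 fold change of 0.86. SUSD6 (chr14:69611596-69715142), a membrane protein gene with a sushi domain, rose at each step. Its levels were 5.17 and 3.79 CPM in hESC, 8.55 and 9.2 in hDE, 24.3 and 19.7 in hAFE and 46.6 and 50.9 in hPFE, with each stage wholly above the one before. It was 10.9-fold higher in hPFE than in hESC (log2 fold change 3.44 ± 0.22, adjusted p = 6.86e-05), and the last step passed without each library in turn (log2 fold change 1.14 ± 0.20, adjusted p = 0.0172), but was lost in 2 of 12 other analyses. The first step (log2 fold change 0.99 ± 0.21, adjusted p = 0.00847) was lost without hESC replicate 2 or hDE replicate 2 (adjusted p between 0.0549 and 0.0589) and in 2 of 12 other analyses. ZMAT3, an RNA-binding zinc finger protein that regulates splicing, was at 11.5 and 8.48 CPM in hESC, 11.2 and 7.39 in hDE, 18.6 and 22.9 in hAFE and 38.7 and 66.7 in hPFE. It rose 5.26-fold over the course (log2 fold change 2.4 ± 0.33, adjusted p = 0.00125). The rise at hAFE (log2 fold change 1.16 ± 0.33, adjusted p = 0.0311) was lost without either hDE library or hAFE replicate 2 (adjusted p between 0.0595 and 0.183) and in 2 of 12 other analyses. The rise at hPFE (log2 fold change 1.35 ± 0.31, adjusted p = 0.044) was lost without either hESC library, either hDE library, either hAFE library or hPFE replicate 2 (adjusted p between 0.0682 and 0.123) and in 7 of 12 other analyses.

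SESN1 and FDXR shared the dip in hDE. SESN1, a sestrin that restrains mTORC1 and limits oxidative damage, was at 20.6 and 18.1 CPM in hESC, 11.1 and 11.2 in hDE, 36.8 and 35.5 in hAFE and 28.9 and 41.3 in hPFE. Its fall (log2 fold change -0.79 ± 0.20, adjusted p = 0.0157) was lost without either hESC library or either hDE library (adjusted p between 0.0514 and 0.0909) and in 1 of 12 other analyses. It rose at hAFE (log2 fold change 1.69 ± 0.20, adjusted p = 0.000913), and its higher level in hPFE than in hESC (log2 fold change 0.86 ± 0.19, adjusted p = 0.00961) was lost without hESC replicate 2 (adjusted p = 0.072). FDXR, ferredoxin reductase of the mitochondrial electron chain to steroid and iron-sulfur enzymes, was at 15.7 and 12.9 CPM in hESC, 7.03 and 6.59 in hDE, 16.8 and 14.4 in hAFE and 13.9 and 9.88 in hPFE. Its fall (log2 fold change -1.07 ± 0.24, adjusted p = 0.010) was lost without hESC replicate 1 or either hDE library (adjusted p between 0.0561 and 0.0718) and its return (log2 fold change 1.2 ± 0.24, adjusted p = 0.00859) was lost without either hDE library (adjusted p between 0.0554 and 0.0654). CMBL, a hydrolase of the liver and gut, fell at hDE (log2 fold change -2.36 ± 0.41, adjusted p = 0.00354) from 10.6 and 6.16 to 2.05 and 1.23 CPM and stood at 2.58 and 3.07 in hAFE and 3.7 and 4.91 in hPFE. TIGAR, a phosphatase that slows glycolysis, and TRIAP1, a small inhibitor of apoptosome formation, passed in none of the 4 comparisons. Their stage means ran from 8.49 to 16.5 CPM and from 23.1 to 35.3 CPM.

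Most members were higher in the second hPFE library than in the first. In replicate 2, 28 of 33 were higher than in replicate 1, and 15 (45.45%) were more than 1.5-fold higher, where 9.99% of all genes were. None was more than 1.5-fold lower. The largest ratios were 3.99 for FAS, 3.79 for MDM2, 2.34 for TP53INP1, 2.24 for CDKN1A, 2.17 for TIGAR and 2.14 for SPATA18. BBC3, GDF15, BAX, DDB2 and FDXR were lower in replicate 2, with ratios of 0.972, 0.933, 0.841, 0.82 and 0.711. A smaller difference of the opposite sign stood between the hESC libraries, where 8 members (24.24%) were more than 1.5-fold lower in replicate 2, against 5.03% of all genes. These counts past 1.5-fold were taken with 0.5 CPM added to both libraries, while the ratios listed are without it. Of the members in hDE, 0 passed that fold in either direction with the addition. Without it, FAS, CMBL and ZMAT3 had hDE ratios of 2.03, 0.601 and 0.659. With 2 libraries in a stage, these within-stage differences have no test, and the COL3A1, LUM, KRT7 and mitochondrial RNA values given above differ between the same 2 hPFE libraries.

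**Figure D4:**
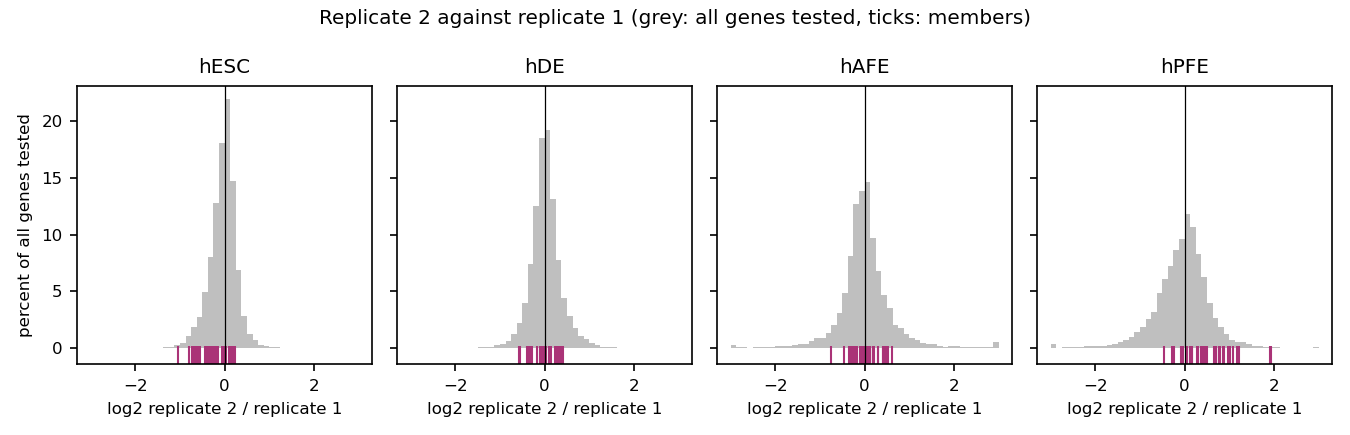
Grey bars show, as a percent of all genes tested, the log2 ratio of replicate 2 to replicate 1 in each stage, with 0.5 CPM added to both and ratios beyond 3 placed in the outermost bars; purple ticks are the 33 members. In hPFE 28 of the 33 ticks lie to the right of 0, while in hESC 26 lie to the left or on it.

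A list of 24 other p53 targets that are no members was counted beside them. In hDE against hESC 5 rose and 12 fell (20.83% and 50%, against 20.3% and 21.6% of all genes tested). In hAFE against hDE 13 rose and 5 fell (54.17% and 20.83%, against 15% and 15.2%). At hPFE against hAFE 4 rose and 0 fell (16.67% and 0%, against 4.77% and 2.71%). Over the course 14 rose and 3 fell (58.33% and 12.5%, against 21.6% and 23.3%). At hDE the list had a median log2 fold change of -0.90, and the values were 1.13 at hAFE, 0.59 at the last step and 0.91 over the course. Over the 20 alternatives the number called higher ran from 0 to 9 at hPFE against hAFE and from 7 to 16 over the course. The ceramidase gene ACER2 fell at hDE (log2 fold change -3.42 ± 0.45, adjusted p = 0.00104) and rose at hAFE (log2 fold change 3.36 ± 0.45, adjusted p = 0.00147). Its hDE level of 0.623 and 0.797 CPM was below both the 8.05 and 7.41 CPM of hESC and the 5.48 and 9.36 CPM of hAFE. RPRM, which codes for the G2 arrest protein reprimo, had the opposite course, at 3.66 and 3.45 CPM in hESC, 26.8 and 33 in hDE, 1.92 and 1.39 in hAFE and 2.31 and 2.09 in hPFE. Over the whole course IGFBP3, a binding protein of insulin-like growth factors (log2 fold change 4.91 ± 0.95, adjusted p = 0.00504), and PLK2, a polo-like kinase (log2 fold change 4.8 ± 0.54, adjusted p = 0.000588), rose. IGFBP3 stood at 88.6 and 396 CPM in the 2 hPFE libraries; its log2 fold change was 5.62 (adjusted p = 0.00287) without the first and 3.46 (adjusted p = 0.0154) without the second. For PLK2 it was 4.09 (adjusted p = 0.00139) without the second. No promoter match was found in the 19 genes of this list that have a window.

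Of 22 genes of the p53 family and its upstream regulators, 3 rose and 10 fell in hDE against hESC. As shares that was 13.64% and 45.45%, against 20.3% and 21.6% of all genes tested. The counts were 5 and 1 in hAFE against hDE (22.73% and 4.55%, against 15% and 15.2%). In hPFE against hAFE they were 0 and 1 (0% and 4.55%, against 4.77% and 2.71%). Over the course they were 5 and 7 (22.73% and 31.82%, against 21.6% and 23.3%), so the share that rose was near the background. At hDE the list had a median log2 fold change of -0.084, and the values were 0.18 at hAFE, -0.075 at the last step and -0.018 over the course. Over the alternatives between 5 and 10 were called lower at hDE and between 2 and 15 higher at hAFE. CHEK2, the checkpoint kinase that phosphorylates p53, fell at hDE (log2 fold change -2.2 ± 0.20, adjusted p = 0.000237) from 61.6 and 58.6 to 14.2 and 12 CPM. HIPK2, a kinase that phosphorylates p53 in its activation domain, rose in the same step (log2 fold change 2.71 ± 0.19, adjusted p = 8.0e-05) from 31.7 and 23.8 to 197 and 166 CPM.

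TP63 and TP73, whose products can bind p53 response elements, also changed. TP63, a gene of epithelial progenitors, had 1 count over both hESC libraries and 809 over both hPFE libraries, a ratio of 916 (95% counting interval 164 to 36218). Its levels were 1.32 and 7.75 CPM in hAFE and 14.5 and 41.1 in hPFE, higher in replicate 2 of each. The edgeR call in hPFE against hESC (adjusted p = 0.00145) stood without each library in turn, and that in hAFE against hDE (adjusted p = 0.0132) was lost without either hDE library (adjusted p between 0.0811 and 0.0882) and in 2 of 12 other analyses. TP73 was at 1.86 and 1.53 CPM in hESC, 0.445 and 0.362 in hDE, 2.18 and 2.34 in hAFE and 3.16 and 2.45 in hPFE. Its fall at hDE (log2 fold change -2.05 ± 0.42, adjusted p = 0.00676) was lost without hDE replicate 2 (adjusted p = 0.052), and its rise at hAFE passed (log2 fold change 2.47 ± 0.42, adjusted p = 0.00407).

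All 6 other CDK inhibitor genes were higher in hPFE than in hESC, where 21.6% of all genes tested were. Their counts were 4 higher and 0 lower at hDE (66.67% and 0%, against 20.3% and 21.6%). At hAFE they were 0 and 3 (0% and 50%, against 15% and 15.2%). At hPFE against hAFE they were 2 and 0 (33.33% and 0%, against 4.77% and 2.71%). The median log2 fold changes of the 6 were 2.33 at hDE, -0.84 at hAFE, 0.27 at the last step and 2.88 over the course. CDKN2B, which codes for p15, was at 0.12 and 0.113 CPM in hESC, 26.8 and 17.2 in hDE, 0.595 and 0.804 in hAFE and 40.2 and 234 in hPFE. It rose at hDE, when CDKN1A fell (log2 fold change 7.46 ± 1.19, adjusted p = 0.00234), fell at hAFE, when CDKN1A rose (log2 fold change -4.96 ± 0.94, adjusted p = 0.00654), and rose with CDKN1A at hPFE (log2 fold change 7.6 ± 0.96, adjusted p = 0.0064). The first of these calls was lost in 1 of 12 other analyses, the second in 3 of 12 other analyses and the third in 2 of 12 other analyses. The last log2 fold change was 8.38 (adjusted p = 0.000451) without hPFE replicate 1 and 5.83 (adjusted p = 0.000761) without replicate 2. CDKN2A, whose products are p16 and the MDM2 antagonist ARF, was at 0.396 and 0.292 CPM in hAFE and 3.76 and 19.8 in hPFE. That rise (log2 fold change 5.05 ± 0.86, adjusted p = 0.0172) was lost without hAFE replicate 2 (adjusted p = 0.0509) and in 4 of 12 other analyses, and without hPFE replicate 2 its log2 fold change was 3.41 (adjusted p = 0.0167), against 5.8 (adjusted p = 0.00189) without replicate 1. Gene-level counts do not separate the 2 products. CDKN2B in hESC and hAFE, and CDKN2A in hAFE, were below 1 CPM, where a few counts set the size of a fold change. The call for CDKN2C over the course (log2 fold change 3.28 ± 1.15, adjusted p = 0.0497) rested on 1 count in hESC and 11 in hPFE and was lost without either hESC library, either hDE library or hPFE replicate 1 (adjusted p between 0.0814 and 0.289) and in 8 of 12 other analyses; without hPFE replicate 2 its log2 fold change was 3.89 (adjusted p = 0.030).

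**Figure D5:**
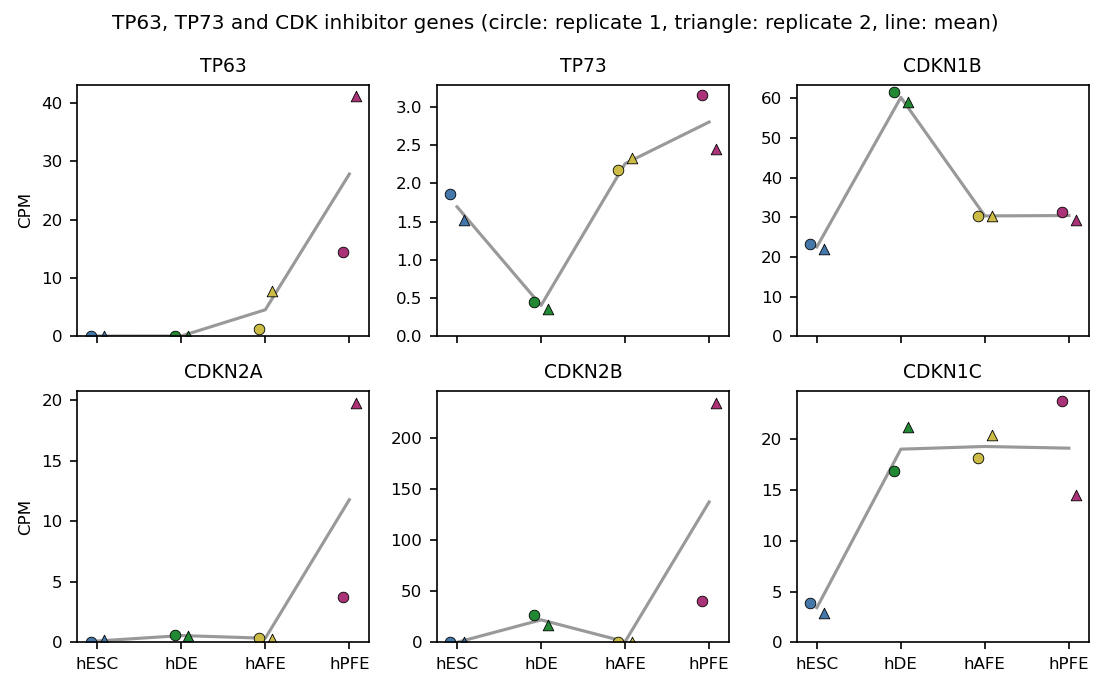
Levels in CPM on linear axes that start at 0 for TP63, TP73, CDKN1B, CDKN2A, CDKN2B and CDKN1C by stage, with circles for replicate 1, triangles for replicate 2 and a line through the stage means. TP63, CDKN2A and CDKN2B are highest in hPFE, with replicate 2 above replicate 1.

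Genes known to be lowered through p21 and the DREAM complex fell in part. Of 16, 0 rose and 8 fell in hDE against hESC, a step at which CDKN1A also fell. That was 0% and 50%, against 20.3% and 21.6% of all genes tested. In hAFE against hDE, where CDKN1A rose, edgeR called 0 of them; 4 had an unadjusted p below 0.05, DESeq2 called 1, limma voom 3, and limma on log2(TPM + 1) 12. At hPFE against hAFE 0 rose and 2 fell, and over the course 0 rose and 9 fell, among them BUB1 (log2 fold change -1.4 ± 0.22, adjusted p = 0.00207), CDC25A (log2 fold change -1.39 ± 0.18, adjusted p = 0.00107) and FANCD2 (log2 fold change -1.17 ± 0.13, adjusted p = 0.000491); limma on log2(TPM + 1) called 1 of the 16 there. Over the course the CDC25A call was lost in 2 of 12 other analyses and the FANCD2 call in 1 of 12. CDC25A, a phosphatase that drives entry into S phase, also fell at the last step (log2 fold change -1.12 ± 0.18, adjusted p = 0.0143), a call lost in 4 of 12 other analyses. In the edgeR calls, 0% of the list passed at hAFE, against 30.2% of all genes tested. At the last step 0% rose and 12.5% fell, against 4.77% and 2.71%. Over the course 0% rose and 56.25% fell, against 21.6% and 23.3%. At hDE the list had a median log2 fold change of -0.50, and the values were 0.24 at hAFE, -0.18 at the last step and -0.56 over the course. Over the 20 alternatives the number called lower ran from 2 to 13 at hDE and from 1 to 13 over the course.

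Among 12 other BCL2 family genes, 11 were tested and BCL2A1 was not. Over the course 3 rose and 2 fell (27.27% and 18.18%), near the 21.6% and 23.3% of all genes tested. BCL2 itself, which holds back apoptosis, rose at hAFE (log2 fold change 2.92 ± 0.19, adjusted p = 6.41e-05) from 4.09 and 3.84 to 30 and 30.1 CPM and stayed above hESC (log2 fold change 1.93 ± 0.18, adjusted p = 0.000269). BMF, a BH3-only gene, rose too (log2 fold change 1.91 ± 0.24, adjusted p = 0.000933), whereas the fall of BOK (log2 fold change -1.11 ± 0.29, adjusted p = 0.0165) was lost without either hESC library or hPFE replicate 2 (adjusted p between 0.0509 and 0.0849) and in 2 of 12 other analyses. At hDE 2 rose and 3 fell (18.18% and 27.27%, against 20.3% and 21.6% of all genes). At hAFE 4 rose and 3 fell (36.36% and 27.27%, against 15% and 15.2%). At hPFE against hAFE edgeR called 0, where it called 7.49% of all genes. There 4 had an unadjusted p below 0.05, DESeq2 called 2 and limma voom 0. At hDE the list had a median log2 fold change of 0.21, and the values were -0.029 at hAFE, -0.14 at the last step and 0.40 over the course.

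Most genes of the integrated stress response, which shares PMAIP1 and TNFRSF10B as targets, rose at hDE and fell at hAFE. Of 12 genes of that pathway 10 rose and 0 fell in hDE against hESC, among them PPP1R15A (log2 fold change 3.49 ± 0.39, adjusted p = 0.000526), DDIT3 (log2 fold change 3.28 ± 0.60, adjusted p = 0.00433) and HERPUD1 (log2 fold change 2.94 ± 0.29, adjusted p = 0.000301). For DDIT3 the log2 fold change was 4.35 (adjusted p = 0.00821) without hESC replicate 1 and 2.68 (adjusted p = 0.026) without replicate 2. In hAFE against hDE 0 rose and 10 fell, among them TRIB3 (log2 fold change -3.24 ± 0.46, adjusted p = 0.00196), at -3.87 (adjusted p = 0.0019) without hAFE replicate 2. At hPFE against hAFE edgeR called 0, with 2 at an unadjusted p below 0.05, 1 by DESeq2 and 0 by limma voom, and over the course 3 rose and 1 fell. As shares, 83.33% rose and 0% fell at hDE, against 20.3% and 21.6% of all genes tested. At hAFE 0% rose and 83.33% fell, against 15% and 15.2%. The 0 edgeR calls at the last step stand beside 7.49% of all genes. Over the course 25% rose and 8.33% fell, against 21.6% and 23.3%. At hDE the list had a median log2 fold change of 1.84, and the values were -2.05 at hAFE, 0.21 at the last step and 0.22 over the course. Between 4 and 12 genes were called higher at hDE over the 20 alternatives, and between 4 and 12 lower at hAFE. PMAIP1, by comparison, was lower in hDE than in hESC without passing (log2 fold change -0.83 ± 0.34, adjusted p = 0.082) and fell at hAFE with a log2 fold change of -2.91; TNFRSF10B did not pass at either step.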

How the data were processed

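The 8 libraries were made from ribosome-depleted total RNA with dUTP strand marking and sequenced paired-end, per the labels' protocols. The deposited tables are RSEM output by gene, per the submitters' processing notes. These notes also list DESeq2 and hg38 without versions, and the aligner was not given. The authors' expected counts are estimated counts that split shared reads between genes, and the deposited TPM values allow for effective length. The deposited effective lengths and posterior standard deviations of counts were read as other columns; for no member did the second exceed 0.05 of the count in any library. Each table has 59526 rows, of which 58780 matched GENCODE 29, and 97 spike-in and 649 other rows held 0 counts.

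Expected counts were rounded to whole numbers. Genes passing filterByExpr (17446) were fitted in 1 model of 4 stages over all 8 libraries, with 4 residual degrees of freedom, by edgeR 4.0.16 (TMM, quasi-likelihood test) in R 4.3.3, with Benjamini-Hochberg adjustment over all genes tested. Pooling the spread assumes that the stages vary alike; the SD of log2 differences between replicates was 0.307 (hESC), 0.269 (hDE), 0.588 (hAFE) and 0.557 (hPFE). The SE is the absolute log2 fold change divided by the square root of F. Intervals of ratios cover counting error only, as reads carry no molecular identifiers. The 20 alternatives used limma 3.58.1, DESeq2 1.42.0 and other scalings, filters and library subsets; 18 were planned and 2, voom with a weight per stage and limma on TMM-scaled TPM, were chosen after seeing the data. The stage counts without hPFE replicate 2 were also added then. The edgeR test was tried on simulated counts with known changes in hDE against hESC. It recovered 26% of 2-fold and 80% of 4-fold changes, and 9 of its 115 calls were false. Only 100 genes at each fold were changed among 15684, all above a count limit, and the other stages were kept alike. In the data 41.9% of genes were called in that comparison, so the recovery rates may differ from those of the tests above. A result that did not pass can still hide a 2-fold change.

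The members, roles, companion lists and markers were chosen with earlier results of these data known. Values per library are given for members with a called log2 fold change of at least 1 in size and for CDKN1A, MDM2, BBC3, BAX, PMAIP1 and XPC; of each companion list up to 4 genes are named per comparison (the 3 largest called changes and the best expressed that did not pass), with further stages of the same genes, TP63 and CDKN2A chosen after their values were seen. Some genes are not reported here. Promoter sequences are from RefSeq.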

Additional observations from a re-analysis of the deposited data

How the results depend on the processing

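All values are counts of genes with an adjusted p below 0.05 unless stated, and the cause of each change was not tested. Of the members called, 7 of 16 in hDE against hESC, 7 of 14 in hAFE against hDE, 0 of 9 in hPFE against hAFE and 11 of 24 in hPFE against hESC were called in the same direction under all 20 alternatives. In hDE against hESC, log2(TPM + 1) gave 10 members, and leaving out each library gave 8 to 21 members and 3879 to 8328 genes. In hAFE against hDE, log2(TPM + 1) gave 22 members, log2(TPM + 0.1) gave 26 members and 8366 genes, and leaving out each library gave 9 to 18 members and 2512 to 6354 genes. In hPFE against hAFE, no count filter gave 15 members and 3234 genes, only the 4 libraries compared 0 and 56, the effective length offset 5 members, log2(TPM + 1) 3 and 812, log2(TPM + 0.1) 2 and 805, voom with a weight per stage 2 and 447, TMM-scaled TPM 4 members, and leaving out each library 3 to 15 members and 496 to 1586 genes. In hPFE against hESC, leaving out each library gave 13 to 25 members and 4043 to 8309 genes. Deposited TPM was not scaled between libraries: under log2(TPM + 1) the median of all genes stood at -0.27, 0.50, 0.14 and 0.36 in the 4 comparisons, in the order hDE against hESC, hAFE against hDE, hPFE against hAFE and hPFE against hESC. The share of called genes that were higher was 18.14%, 88.76%, 89.41% and 78.73% there, against 48.37%, 49.53%, 63.78% and 48.11% in the main analysis. Of 63 called results of members, the sign turned for 1, CCNG1 in hDE against hESC on log2(TPM + 1) (-0.007823) and log2(TPM + 0.1) (-0.007863); of 69 not called it turned for 29 under at least 1 alternative, with 0 opposite calls, TP53INP1 in hPFE against hAFE without hPFE replicate 2 (-0.1643) among them. Of 59 called results of companion genes it turned for 0, and of 23 not called for 15, with opposite calls for THBS1 in hAFE against hDE without hAFE replicate 1 (-1.026, past the threshold, against 0.8754 without hAFE replicate 2, also past it) and MCL1 in hAFE against hDE on log2(TPM + 0.1) (0.8356).

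With the replicate number as a block, 15, 14, 4 and 23 members and 6909, 4941, 1072 and 7494 genes were called in the 4 comparisons in that order, against 16, 14, 9 and 24 members and 7304, 5267, 1306 and 7842 genes without it. The libraries share only a number: deviations of same-numbered libraries from their stage means correlated between -0.041 and 0.061.

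With 2 libraries a stage, a lone library left in a stage is assumed to vary like the other stages. The list counts and the companion genes named by the rule were run under the same alternatives; the arrest genes, 5 of 5 higher in hPFE against hESC, numbered 3 to 5, and the other CDK inhibitors, 6 of 6 there, numbered 3 to 6. Ranges stand beside some counts above for the other p53 targets, the upstream regulators, the genes lowered through p21 and the stress response. For the feedback, mitochondrial apoptosis, death receptor, repair, metabolism and BCL2 family lists none is given, though their counts also moved between alternatives.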
